A study of Mus musculus with 221 samples.

Results

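Lymphoid, myeloid and erythroid fate genes were followed in single mouse embryonic cells that were leaving the endothelium to become blood. The 10 genes were chosen by symbol, with earlier results of these data known. They were Myb, Spi1, Ikzf1, Ikzf2, Flt3, Il7r, Cebpa, Gata1, Klf1 and Csf1r, out of 78001 genes in the annotation, with 51 of its 278369 transcripts. Of the 10 genes, 9 had at least 1 count in a cell; Il7r had none. 4 of them carried nearly all of the signal, with 1261 counts of Spi1 in 126 of 208 cells, 849 counts of Myb in 94 cells, 388 counts of Ikzf1 in 67 cells and 233 counts of Ikzf2 in 49 cells.

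Cells were flow-sorted from the aorta-gonad-mesonephros region (AGM, inside the embryo) and the yolk sac (YS, outside it) of Gfi1-GFP and Runx1b-RFP reporter embryos, and their full-length Smart-seq2 cDNA was read again on a nanopore sequencer to see whole transcripts. The labels put 9 clusters in the series. The AGM gave early (c3) and late (c4) hemogenic endothelium (HE-AGM) and the intra-aortic hematopoietic cluster cells c5 (labelled HE-Hb); the YS gave early and late HE of trajectory A (HE-YSA, a1 and a2, named m1 and m2 in the sample names) and of trajectory B (HE-YSP, b2 and b3), a lymphomyeloid-skewed early progenitor cluster p1 and an erythromyeloid-skewed one p2. All cells carried reporter alleles and none were treated. AGM HE was sorted as RUNX1+, KIT-, CDH5+, CD41- and CD45-, at E9.5 and E10.5 with no stage in the names of most cells, and YS HE as RUNX1+, KIT+, CD31+, CD41- and CD45- at E9, E9.5 and E10.5, both GFI1+ or GFI1-, so the genes of those gates are not results here. Of the p1 cells used, 15 were labelled E10.5 and 2 E9.5. Of the p2 cells, 6 were E10.5, 9 were E9.5 and 5 were E9. By their names, 18 of 23 a1 and 29 of 29 a2 cells used came from the Gfi1 gate. So did 3 of 25 b2, 10 of 24 b3, 5 of 17 p1 and 2 of 20 p2 cells. The other YS cells were named for the Runx1 gate, apart from 1 a1 cell with none.

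Blood fate is set by transcription factors whose dose tilts a progenitor towards one lineage, and by cytokine receptors that let it answer survival and growth signals. Spi1 (PU.1) and Cebpa drive myeloid programmes, Gata1 and Klf1 drive erythroid ones, and the zinc finger protein Ikaros (Ikzf1) and its relative Helios (Ikzf2) act in lymphoid and early progenitor cells. Myb is needed for definitive, but not for primitive, blood formation. Flt3 and Il7r are receptors of lymphoid-primed and lymphoid progenitors, and Csf1r is the receptor that macrophages need.

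After a limit of 17595 counts per cell, 208 of 221 cells were used, with totals from 18131 to 125339. The progenitor clusters held 21 (c5), 17 (p1) and 20 (p2) cells, and the HE clusters 20 to 29 cells each. Median totals per cell were 59726 in c5, 30858 in p1 and 36709.5 in p2, so detection was also computed at equal depth. No cells shared a run and barcode or a library well (0 of 221), 3 cells carried a library name against their cluster, and 1 c3 cell stood apart with 11877 CPM of primitive erythroid markers against at most 473 CPM in the other HE-AGM cells. No embryo is named for any cell, so each cluster is 1 sample and no test between clusters was possible. Levels are CPM, the gene's share of all counts of the cells scaled to 1000000, with 95% exact Poisson intervals for levels and ratios and exact binomial intervals for shares. The intervals cover counting error only, because PCR copies were not collapsed. Where a gene had no count, the limit given for its level is that of 3 counts over the cells concerned. The study drew the clusters from short reads of the same cDNA, so differences between clusters are descriptions. All c5 cells came from 1 plate of the AGM cDNA project, and AGM and YS cells from different projects apart from 1 a1 cell, so that tissue and cDNA project cannot be told apart.

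Sequences are given for transcripts of Myb and Spi1 whose shares are compared between tissues. Myb has 2 abundant protein-coding forms, Myb-203 of 3693 bases and Myb-201 of 3074 bases. Myb-203 holds a 357-base coding exon that Myb-201 lacks, at chr10:21144969-21145325 on the minus strand of GRCm38. The exon adds 119 residues and leaves the frame intact. The lengths differ by more than this exon, and which bases decided the assignment of reads was not tested. Capitals mark exon bases. The lines show the start and the end of the exon in Myb-203, and the join without it in Myb-201, with 30 bases of the neighbouring coding exons in lower case.
Myb-203, start: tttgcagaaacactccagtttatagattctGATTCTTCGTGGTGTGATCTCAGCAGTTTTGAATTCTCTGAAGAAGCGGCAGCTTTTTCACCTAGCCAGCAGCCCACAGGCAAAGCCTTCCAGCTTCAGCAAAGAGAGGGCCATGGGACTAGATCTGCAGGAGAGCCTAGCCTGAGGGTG
Myb-203, end: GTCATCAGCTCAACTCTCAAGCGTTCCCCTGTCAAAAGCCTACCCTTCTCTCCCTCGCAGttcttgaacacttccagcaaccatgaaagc
Myb-201: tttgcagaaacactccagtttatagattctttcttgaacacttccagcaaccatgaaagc

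Spi1 transcripts differ at their first coding bases. In Spi1-201 the coding part of the first exon (chr2:91096949-91096993, plus strand, GRCm38) joins exon 2 directly. In Spi1-203 exon 2 starts 30 bases earlier (capitals, chr2:91099400-91099429), in frame and with 0 stop codons. In Spi1-204 a first exon 13572 bases further upstream supplies a different start of 20 coding bases (capitals, chr2:91082504-91082523). These 20 bases are not a whole number of codons, so from that start exon 2 is read in another frame than in Spi1-201. The sequences come from the GENCODE M21 annotation and were matched to the deposited transcripts by identifier and length.
Spi1-201: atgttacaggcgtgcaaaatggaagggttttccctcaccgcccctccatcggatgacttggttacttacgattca
Spi1-203: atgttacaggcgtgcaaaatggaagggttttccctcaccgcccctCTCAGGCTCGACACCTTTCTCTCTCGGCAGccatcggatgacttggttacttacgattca
Spi1-204: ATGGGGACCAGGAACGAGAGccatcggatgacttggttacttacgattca

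Myb had its highest summed level in the AGM progenitor cluster, though not in every run. Among c5 cells it ranged from 0 to 433 CPM with a median of 167 CPM, and the summed level was 209 CPM (186 to 233, 315 counts, 21 cells). In p1 it ranged from 0 to 208 CPM with a median of 39.3 CPM (summed 47.2 CPM, 32.1 to 67.0, 17 cells). In p2 it ranged from 0 to 138 CPM with a median of 12.6 CPM (summed 51.9 CPM, 36.7 to 71.2, 20 cells). The ranges of single cells overlapped in all 3 clusters, but 19 of 21 c5 cells held a Myb count, against 10 of 17 p1 cells and 10 of 20 p2 cells. Expected at equal depth, these shares were 84.4%, 48.2% and 43.0%. In HE the late AGM cluster c4 followed c5, with 0 to 581 CPM, a median of 125 CPM and a summed level of 150 CPM (130 to 171), and 19 of its 20 cells held a count. By run, Myb was 221, 155 and 233 CPM in c5 and 257, 154 and 81.6 CPM in c4, so c5 was above c4 by a clear margin in run 3, level with it in run 2 and below it in run 1. Early c3 held 70.1 CPM (58.9 to 83.0), late a2 72.3 CPM (57.1 to 90.4) and late b3 46.3 CPM (32.8 to 63.5). The intervals of c3, a2, p2, p1 and b3 overlapped, so their order is not resolved. Early YS HE was nearly empty of Myb: 1 count in 1 of 23 a1 cells and 5 counts in 2 of 25 b2 cells.

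Spi1 was present in every progenitor cluster and had its highest summed level in late AGM HE, an order that rested on 1 of the 3 runs. In c5 all 21 cells held it, from 42.4 to 603 CPM with a median of 162 CPM (summed 201 CPM, 179 to 225). In p1, 14 of 17 cells held it, from 0 to 375 CPM with a median of 113 CPM (summed 129 CPM, 103 to 160). In p2, 15 of 20 cells held it, from 0 to 266 CPM with a median of 30.2 CPM (summed 66.9 CPM, 49.5 to 88.4). The 3 intervals did not overlap, while the ranges of single cells did. Late c4 had the highest summed level, 254 CPM (228 to 282), with cells from 0 to 791 CPM and a median of 229 CPM. By run, Spi1 was 257, 216 and 270 CPM in c4 and 270, 282 and 110 CPM in c5, so c4 was above c5 in run 3 and below it in runs 1 and 2. Early c3 was divided, with a summed level of 153 CPM (136 to 171) but a median cell at 0 and a highest cell at 985 CPM. Levels in YS HE were lower, at 62.9 CPM in a2, 62.1 CPM in b3, 44.0 CPM in a1 and 22.3 CPM in b2. A single cell supplied 43.2% of the a1 counts.

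Ikzf1 was mainly a gene of the progenitor clusters. It ranged from 0 to 266 CPM with a median of 122 CPM in c5 (summed 133 CPM, 115 to 153), from 0 to 211 CPM with a median of 33.3 CPM in p1 (summed 65.5 CPM, 47.4 to 88.2), and from 0 to 320 CPM with a median of 13.8 CPM in p2 (summed 60.1 CPM, 43.6 to 80.6). It was detected in 19 of 21 c5 cells, 10 of 17 p1 cells and 10 of 20 p2 cells, or 79.9%, 47.4% and 40.1% at equal depth. HE-AGM cells reached at most 123 CPM, with summed levels of 12.9 CPM in c3 and 27.3 CPM in c4. HE-YSA was almost without it: 0 of 23 a1 cells, which allows up to 3.57 CPM, and 2 of 29 a2 cells with 8 counts. In HE-YSP, b2 had 2 counts in 1 of 25 cells, but b3 had 27 counts in 11 of 24 cells (32.9 CPM, 21.7 to 47.9). The b3 interval lay below that of c5 and just overlapped those of p1 and p2.

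**Figure D1:**
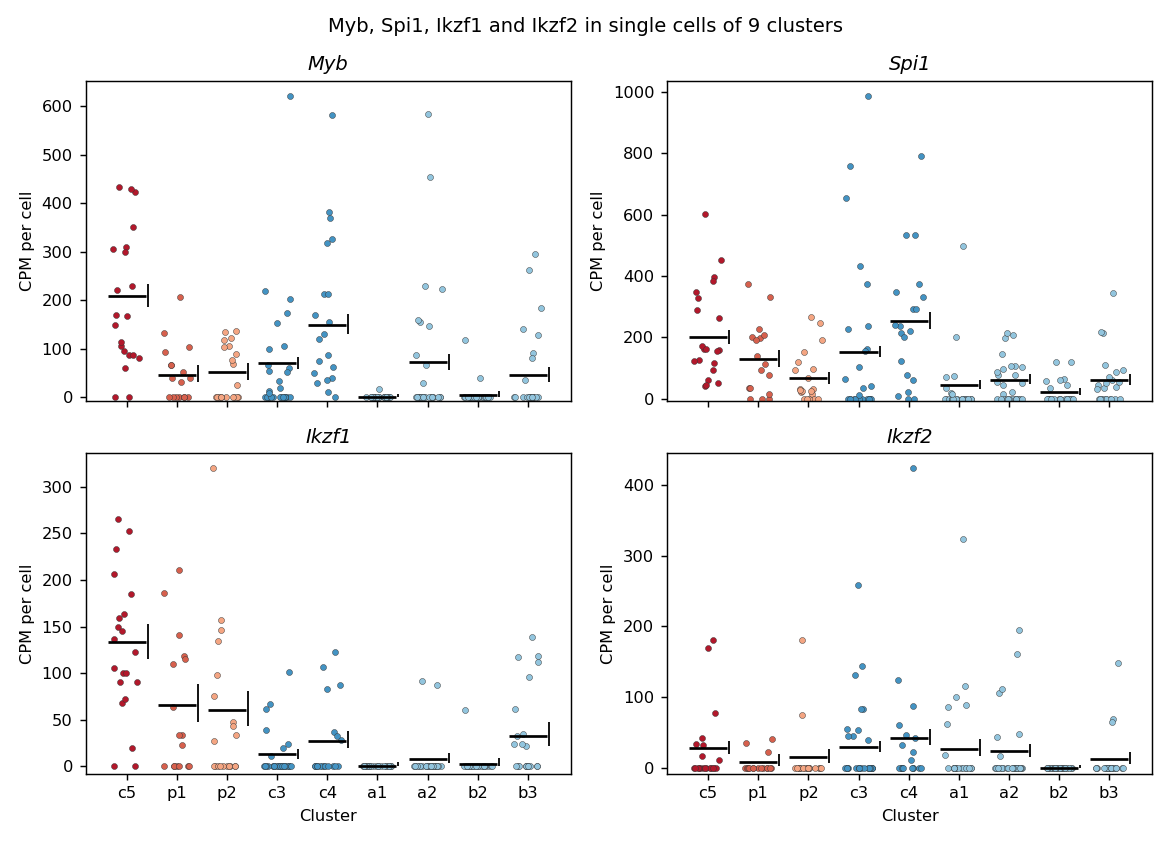
CPM of the most abundant fate genes per cell (points) in the 9 clusters, progenitors first. The horizontal lines are summed CPM and the vertical lines at the right 95% Poisson intervals. Myb, Spi1 and Ikzf1 fill nearly every c5 cell, whereas many p1, p2 and HE cells sit at 0, and Ikzf1 is absent from a1.

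Ikzf2 did not follow its relative Ikzf1. It ranged from 0 to 180 CPM with a median of 0 in c5 (27.8 CPM, 20.1 to 37.6, 8 of 21 cells), and its summed level was 9.14 CPM in p1 (3.35 to 19.9, 6 counts in 3 of 17 cells) and 15 CPM in p2 (7.50 to 26.9, 11 counts in 2 of 20 cells). 1 p2 cell held 63.6% of the p2 counts. In HE it was 42.4 CPM in c4 (32.3 to 54.7), of which 55.9% came from 1 cell, 29.4 CPM in c3, 27.4 CPM in a1, 23.5 CPM in a2 and 12.2 CPM in b3. No count fell in the 25 b2 cells, which allows up to 3.53 CPM. The interval of c4 lay above those of p1, p2, b2 and b3, and that of c5 lay above those of p1 and b2 but overlapped that of p2.

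Flt3, the receptor of the cytokine Flt3 ligand, was found almost entirely in c5. The 21 c5 cells ranged from 0 to 123 CPM with a median of 0, and 9 of them (42.9%, 21.8 to 66.0) held 46 counts, or 30.5 CPM (22.3 to 40.6). At equal depth 26.3% of c5 cells would be expected to hold it. Outside c5, 1 c3 cell held 8 counts and 1 p1 cell held 1 count, and p2 held none, which allows up to 4.10 CPM. Within c5 the counts were uneven between nanopore runs, with 11, 1 and 34 counts in runs 1, 2 and 3 from 7 cells each; the median total of the run 3 cells, 93787, was above those of the other two runs. All 9 Flt3 cells of c5 also held Myb, Spi1 and Ikzf1, and 3 held Ikzf2. Il7r, the interleukin 7 receptor chain of lymphoid progenitors, had 0 counts in 208 cells, which allows up to 0.306 CPM over all cells and up to 1.44% of cells with a count. This limits cells with a count, not cells that express the gene.

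The erythroid regulators Gata1 and Klf1 and the myeloid regulator Cebpa were limited to a handful of cells. Gata1 had 12 counts in 3 cells: 1 E10.5 p2 cell held 8 counts, a second E10.5 p2 cell 1 count and 1 c4 cell 3 counts. The first of these cells had 140 CPM of Gata1 beside 314 CPM of Gfi1b and 192 CPM of Treml1 (a platelet and megakaryocyte protein), with 69.8 CPM of Myb, 17.5 CPM of Spi1 and no Ikzf1 count. Klf1 had 7 counts, 2 in 1 c3 cell and 5 in 1 c4 cell; the c3 cell was the one with high primitive erythroid markers. Cebpa had 4 counts, all in 1 c5 cell, which also held 555 CPM of Mpo (myeloperoxidase), 34.0 CPM of Flt3, 306 CPM of Myb and 45.3 CPM of Spi1. None of Gata1, Klf1 and Cebpa was detected in p1, which allows up to 4.57 CPM of each.

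Csf1r, the receptor of macrophage colony-stimulating factor, was spread thinly over HE. It had 47 counts in 14 cells, of which 4 were among the 29 a2 cells (13 counts, 12.2 CPM) and 3 among the 25 b2 cells (9 counts, 10.6 CPM). The c3 cluster held 13 counts in 2 cells and c4 6 counts in 1 cell. No c5 cell held it, which allows up to 1.99 CPM, and p1 and p2 held 1 count each. It thus did not mark the progenitor clusters at this depth.

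**Figure D2:**
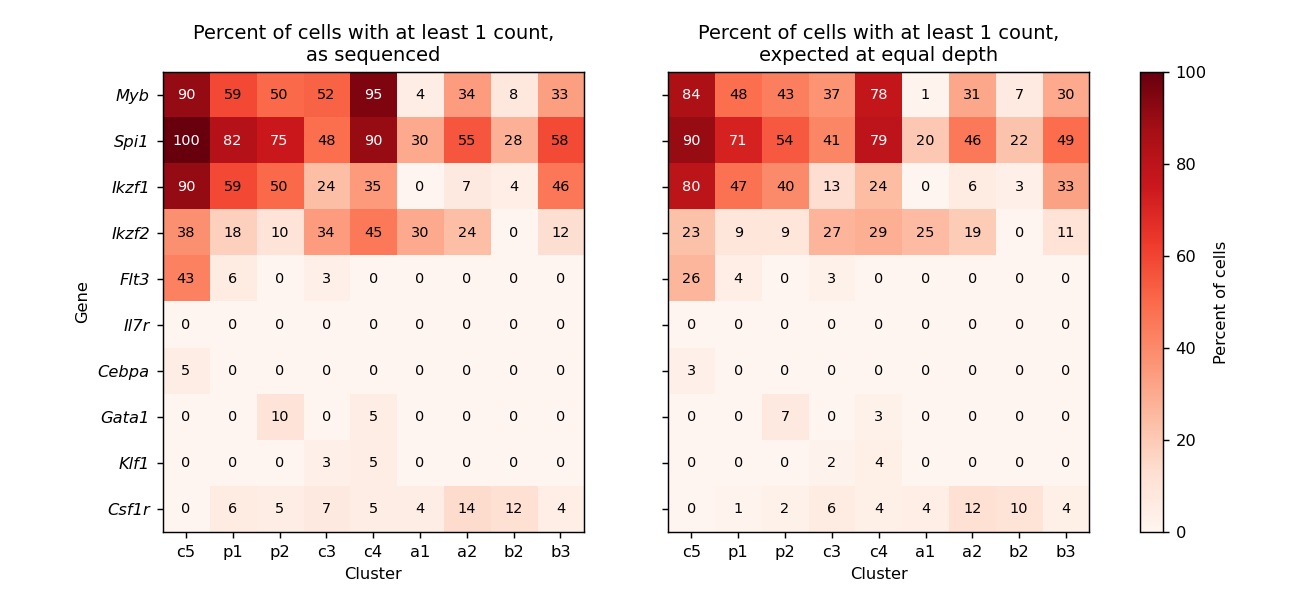
Share of cells (percent, printed in each field) with at least 1 count of each of the 10 fate genes in the 9 clusters, as measured and as computed for every cell thinned to the same total. Spi1 is detected in all 21 c5 cells and Flt3 in 9 of them. Il7r is 0 in every cluster.

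Combinations of the genes within 1 cell were densest in c5. The median c5 cell held 4 of the 10 genes (2 to 5), the median p1 cell 3 (0 to 4) and the median p2 cell 2 (0 to 4). At equal depth the mean numbers expected were 3.06, 1.81 and 1.56. Among HE clusters the median was 3 in c4, 1 in c3, a1, a2 and b3, and 0 in b2, where 16 of 25 cells held none. Myb and Spi1 were found together in 19 of 21 c5 cells, 8 of 17 p1 cells and 7 of 20 p2 cells. Spi1 and Ikzf1 were found together in 19, 9 and 7 cells, and Myb and Ikzf1 in 17, 7 and 5 cells of the same clusters. Across the 58 progenitor cells, which share depth and cluster differences, Pearson's r of log2(CPM + 1) was 0.30 for Myb with Ikzf1 and 0.29 for Spi1 with Ikzf1. Within c5 alone these values were 0.05 and 0.04.

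**Figure D3:**
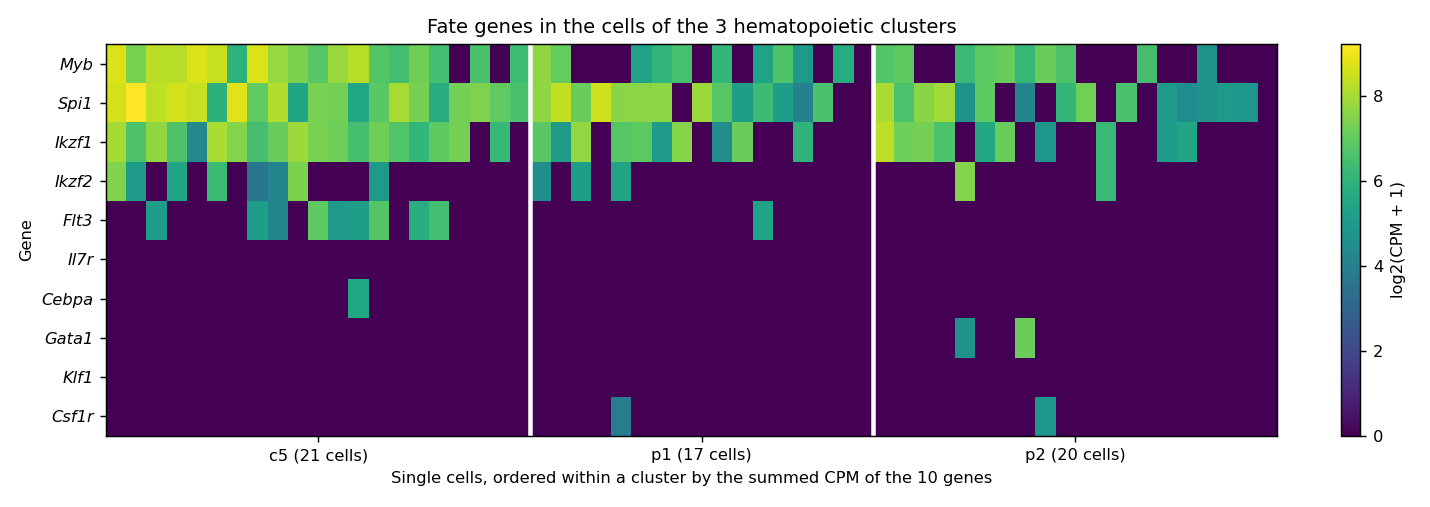
Each column is 1 progenitor cell of c5, p1 or p2 and each row a fate gene, coloured by log2(CPM + 1). Myb, Spi1 and Ikzf1 are filled together in most c5 cells, Flt3 appears in 9 c5 cells, and Gata1 appears in 2 p2 cells.

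Of the fate genes with enough counts, only Spi1 had a ratio between lymphomyeloid-skewed p1 and erythromyeloid-skewed p2 whose interval excluded 0. 4 of the 10 genes had at least 10 counts over both clusters, the minimum used for a ratio. Spi1 was higher in p1 (129 against 66.9 CPM, log2 ratio 0.95, 0.43 to 1.49), short of 2-fold. For Myb the log2 ratio was -0.13 (-0.87 to 0.59), for Ikzf1 0.12 (-0.52 to 0.76) and for Ikzf2 -0.67 (-2.44 to 0.84), and all of these intervals included 0. None of the 4 genes was past 2-fold in either direction, against 13% of 8257 genes higher and 13.3% lower in p1. With 4 genes it cannot be said whether they differed less than other genes. The median of the 4 was -0.00 and that of all genes -0.02.

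Stage moved with this comparison. Within p2, Spi1 was 128 CPM in the 5 E9 cells, 51.8 CPM in the 9 E9.5 cells and 38.1 CPM in the 6 E10.5 cells, and Ikzf1 was 117, 45.4 and 33.9 CPM in the same cells. Myb had no such order, at 48.0, 38.9 and 72.0 CPM. With only E10.5 cells, 15 of p1 and 6 of p2, the log2 ratio of p1 over p2 was 1.61 for Spi1, -0.87 for Myb and 0.40 for Ikzf1. A second set was limited to plates WN-S6-3 and WN-S6-4, with 14 p1 and 6 p2 cells. Its log2 ratio was 2.20 for Spi1, -1.07 for Myb and 0.87 for Ikzf1. It leaves out plate WN-S6-2, with 1 p1 and 13 p2 cells, and plate WN-S6-1, with 1 cell of each. Spi1 was thus past 2-fold in both restricted sets, which share most of their p2 cells. The part of stage and plate in the difference was not tested. Between runs, the Spi1 ratio ranged from 0.39 to 2.04 and the Myb ratio from -1.98 to 1.08.

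Both YS progenitor clusters were below c5 in most of these genes. The comparisons share the c5 cells. Myb was 4.42-fold lower in p1 (log2 ratio -2.12, -2.73 to -1.61) and 4.02-fold lower in p2 (-1.99, -2.53 to -1.52). Ikzf1 was 2.03-fold lower in p1 (-1.01, -1.53 to -0.54) and 2.22-fold lower in p2 (-1.14, -1.65 to -0.67). Spi1 was 1.56-fold lower in p1 (-0.63, -1.0 to -0.29) and 3.01-fold lower in p2 (-1.58, -2.06 to -1.15). The ratio of Flt3 in p1, which rests on 1 count, was -3.75 (-9.66 to -1.77), and in p2, where it was at 0, Flt3 was at least 7.44-fold lower when p2 was set to the 3-count limit of 4.10 CPM. Ikzf2 had log2 ratios of -1.51 (-3.13 to -0.37) and -0.84 (-2.0 to 0.09). Of 5 genes, 4 were past 2-fold lower and 0 higher in p1, where 33.7% of all genes were lower and 18.6% higher, and 4 were past 2-fold lower and 0 higher in p2, where 32.7% were lower and 18.8% higher. The members' medians were -1.51 and -1.58, against -0.19 and -0.21 over all genes. The Myb ratios kept their sign in each run, -3.24 to -1.40 for p1 and -3.03 to -1.25 for p2. Spi1 did not keep it in p1, where the runs gave -1.27 to 0.07, and ran from -3.31 to -0.32 in p2. For Ikzf1 the runs gave -1.75 to -0.64 in p1 and -1.92 to -0.61 in p2, so that it was within 2-fold in at least 1 run of both comparisons. The Ikzf2 runs lay between -3.78 and -0.05 for p1, and between -3.54 and -0.40 for p2.

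Against the HE of its own site, each progenitor cluster held more Ikzf1. In c5 it was 7.04-fold higher than in HE-AGM (133 against 18.9 CPM, log2 ratio 2.81, 2.40 to 3.25; runs 2.60 to 3.07). In p1 it was 15.6-fold higher than in HE-YSA (65.5 against 4.2 CPM, 3.89, 2.86 to 5.26), where HE-YSA rests on 8 counts in 2 cells. In p2 it was 3.46-fold higher than in HE-YSP (60.1 against 17.3 CPM, 1.78, 1.08 to 2.52; runs 0.40 to 2.66). The p2 ratio was thus within 2-fold in run 2. The named gate was mostly Runx1 in p1 and mostly Gfi1 in HE-YSA, and its part in their ratio was not tested.

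The other genes differed from pair to pair. In c5 over HE-AGM, Myb was 2.02-fold higher (1.01, 0.79 to 1.24; runs 0.34 to 1.59), Flt3 12.7-fold higher (3.59, 2.57 to 4.96; 1.71 in run 1 and 7.28 in run 3), Spi1 level (0.05, -0.15 to 0.25; runs -0.82 to 1.21), Ikzf2 -0.31 (-0.87 to 0.20; runs -1.13 to 1.27) and Csf1r, at 0 in c5 and set to 3 counts (1.99 CPM), at least 2.87-fold lower. In p1 over HE-YSA, Spi1 was 2.37-fold higher (1.25, 0.82 to 1.67; runs 0.60 to 2.11), Myb 0.22 (-0.44 to 0.82; runs -1.17 to 1.93), Ikzf2 2.76-fold lower (-1.36, -2.98 to -0.24; runs -3.28 to -0.47) and Csf1r -1.92 (-7.85 to 0.22). In p2 over HE-YSP, Myb was 2.02-fold higher (1.01, 0.34 to 1.68; 0.80 in the lowest run), Spi1 0.68 (0.12 to 1.22; runs -0.96 to 1.57), Ikzf2 1.32 (-0.05 to 2.72; 0.05 without the p2 cell that held most of its counts) and Csf1r -1.62 (-7.57 to 0.68). Thus 3 of 6 genes were past 2-fold higher and 1 lower in c5 (all genes 9.71% and 24.8%), 2 of 5 higher and 2 lower in p1 (all genes 12% and 25%), and 3 of 5 higher and 1 lower in p2 (all genes 12% and 22.1%). Medians over the members were 0.53, 0.22 and 1.01, against -0.17, -0.07 and -0.02 over all genes. Endothelial markers moved with all 3 comparisons, from summed levels of 4652 and 2255 CPM in c3 and c4 to 619 CPM in c5, from 6419 and 3411 CPM in a1 and a2 to 1488 CPM in p1, and from 7346 and 2619 CPM in b2 and b3 to 725 CPM in p2. Leaving out the c3 cell with high globin moved the ratios of c5 over HE-AGM by at most 0.0244 on the log2 scale. On the plate that holds all c5 cells alone, the ratio of c5 over HE-AGM was 2.33 for Ikzf1, 0.82 for Myb and -0.39 for Spi1. HE-AGM on that plate was 8 c3 and 18 c4 cells, against 29 and 20 in the full set, so the mix of HE changed too. With only E10.5 cells, the ratio of p2 over HE-YSP was 0.95 for Ikzf1, 2.56 for Myb and -0.31 for Spi1.

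**Figure D4:**
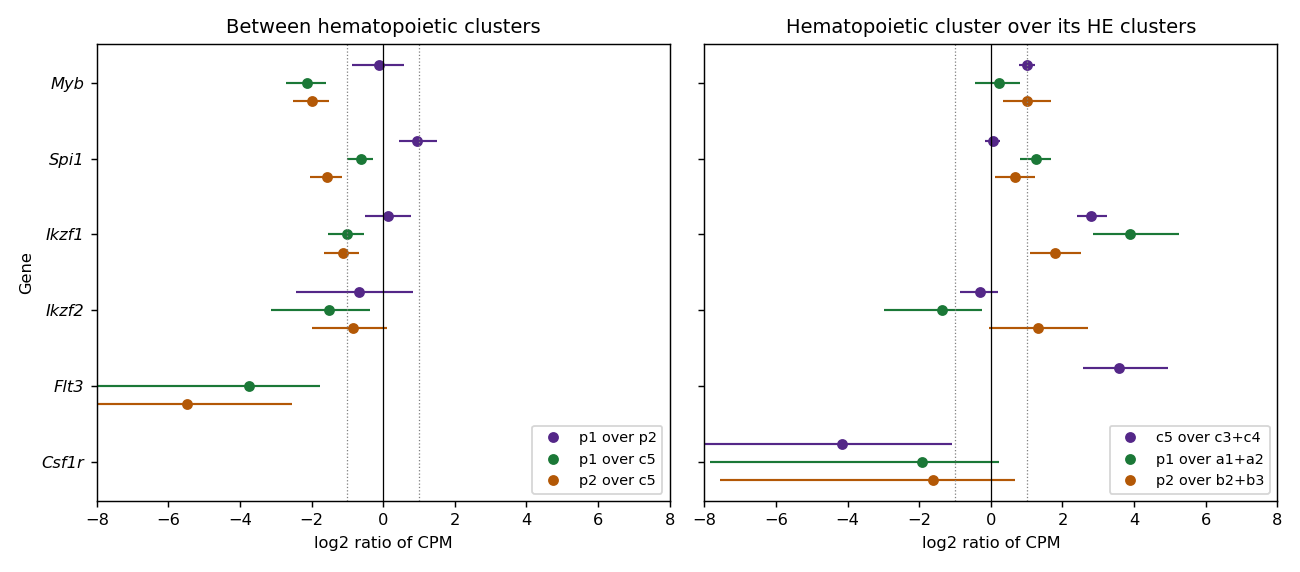
Log2 ratios of summed CPM with 95% Poisson intervals for the fate genes with at least 10 counts, in progenitor and HE comparisons. Dotted lines mark 2-fold, and intervals that reach the edge of a panel run beyond it. Ikzf1 lies to the right of 2-fold in c5 over HE-AGM and in p1 over HE-YSA, and Myb to the left of it in p1 and p2 over c5.

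Among the HE populations, HE-AGM held more Myb and Spi1 than either YS population. Myb was 103 CPM in HE-AGM, 40.9 CPM in HE-YSA (log2 ratio 1.33, 0.98 to 1.71) and 25.7 CPM in HE-YSP (1.99, 1.55 to 2.5). Spi1 was 195, 54.6 and 41.9 CPM, with ratios of 1.83 (1.54 to 2.15) and 2.21 (1.86 to 2.60). Between runs, the Myb ratios were 0.68 to 2.99 and 1.27 to 3.33, and the Spi1 ratios 1.36 to 2.68 and 1.35 to 2.72. Ikzf1 and Ikzf2 split the YS populations in opposite directions: HE-YSA had 4.13-fold less Ikzf1 than HE-YSP (-1.98, -3.39 to -0.88) and 4.21-fold more Ikzf2 (2.02, 1.07 to 3.22). Retained-intron transcripts took 22 of 48 Ikzf2 counts in HE-YSA and 7 of 10 in HE-YSP. The named gate also differed, mostly Gfi1 in HE-YSA and mostly Runx1 in HE-YSP, and its part was not tested. Of 5 genes, 3 were past 2-fold higher in HE-AGM than in HE-YSA (all genes 32.9%, and 15.5% lower) and 3 higher than in HE-YSP (all genes 35.9%, and 15.7% lower). The medians of all genes were 0.31 and 0.41 in these comparisons, which share HE-AGM. In HE-YSA over HE-YSP, 1 of 5 genes was past 2-fold higher and 1 lower (all genes 15.2% and 12.1%).

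The Myb form with the additional exon had the largest share of counts in every cluster that could be read. In p1 the interval was too wide to resolve which form was the main one. Myb-203 took 85.7% of Myb counts in c5 (81.4 to 89.4, 315 counts), 80.3% in p2 (62.7 to 90.4, 38 counts) and 51.1% in p1 (33.1 to 69.8, 31 counts). In HE it took 89.5% in c3, 77.0% in c4, 67.2% in a2 (77 counts) and 63.7% in b3 (38 counts). Pooled, it took 83.7% in AGM clusters (80.7 to 86.5; runs 81.0 to 85.6) and 66.5% in YS clusters (59.1 to 73.0; runs 58.3 to 78.3), and Myb-201 took 14.5% and 28.3%. The retained-intron transcript Myb-205 had the other 22 counts, in 7 cells. The interval of p1 lay below that of c5 and overlapped that of p2.

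Spi1 counts from the distal first exon were a larger share in the YS. Spi1-204 took 2.73% of Spi1 counts in AGM clusters (1.79 to 3.97, 26 of 953 counts; runs 2.39 to 3.23) and 20.1% in YS clusters (15.8 to 25, 62 of 308 counts; runs 11.9 to 26.4). It was detected in 19 of the 53 AGM cells with Spi1 and in 34 of the 73 YS cells with Spi1. The share was between 2.6% and 2.8% in c3, c4 and c5, and 12.9% in p1, 20.4% in p2, 35.1% in a1, 22.4% in a2 and 21.6% in b3. The intervals of the pooled tissues did not overlap. Tissue, KIT gate, cDNA project and depth all differed between the pools, and their parts in the difference cannot be told apart. Spi1-203, a 402-base transcript with incomplete annotated ends, took 51.4% of all Spi1 counts and its share ran from 11% to 69% between runs within c5, so no difference is read from it. Its counts are part of the total behind the Spi1-204 shares, and Spi1-204 is itself a short transcript of 544 bases. Spi1-201, Spi1-205 and Spi1-206 received equal counts in every cell and can only be given together, at 42% in AGM and 39.3% in YS clusters.

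Ikzf1 counts were spread over more transcripts. Ikzf1-207 took 48.8% of all Ikzf1 counts, Ikzf1-210 19.3% and Ikzf1-203 16.8%. Ikzf1-207 took 48.0% in c5 (40.7 to 54.9), 54.0% in p1 (37.7 to 68.8) and 65.0% in p2 (50.1 to 79.5), with overlapping intervals. Ikzf2 differed more: the full-length Ikzf2-201 took 95.2% of the 42 counts in c5, whereas retained-intron transcripts Ikzf2-203 and Ikzf2-205 together took 6 of 6 counts in p1 and 9 of 11 in p2. Pooled over all clusters of a tissue, the retained-intron share was 22.2% in the AGM (15.9 to 29.4; runs 10.0 to 30.6) and 58.7% in the YS (46.7 to 69.9; runs 25 to 74.2). The share also differed within the AGM, at 4.76% in c5 and 37.3% in c4. All 55 Flt3 counts belonged to the coding transcript Flt3-201.

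**Figure D5:**
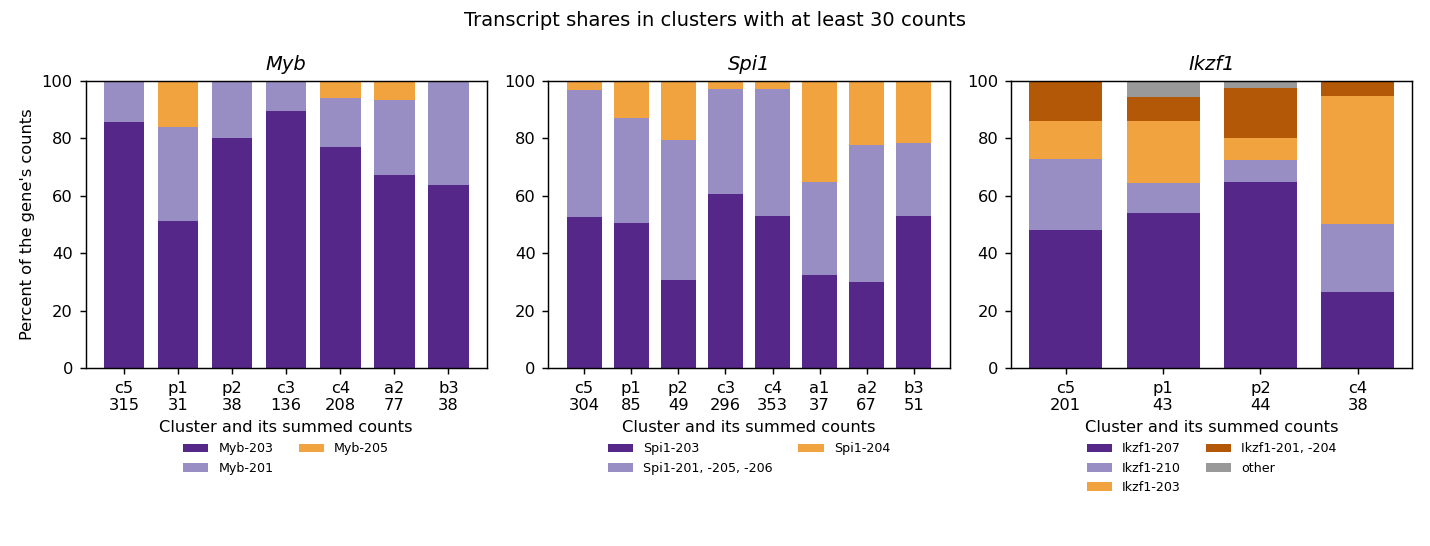
Share of each gene's counts (percent) taken by its transcripts in clusters with at least 30 counts of the gene. Myb-203 is the largest part in every cluster shown, and Spi1-204 is thin in c3, c4 and c5 and wider in the YS clusters.

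Other erythroid and megakaryocyte genes were lower in p1 than in p2 more often than higher, and other myeloid genes the reverse. Of 24 erythroid and megakaryocyte genes, 16 had at least 10 counts over p1 and p2; 8 were past 2-fold lower and 0 higher in p1, with a median log2 ratio of -0.97, where 13.3% of all genes were lower and 13% higher. Treml1 was 3.05 CPM in p1 and 72.4 CPM in p2, and Nfe2 (a megakaryocyte and erythroid factor) 60.9 and 146 CPM. Gfi1b was 107 and 177 CPM, and the corepressor Cbfa2t3 32 and 60.1 CPM. The list also holds the sort gene Itga2b (CD41), at 10.7 and 25.9 CPM. Of 24 myeloid genes, 11 had the counts; 3 were past 2-fold higher and 0 lower, with a median of 0.54, against the same shares of all genes. The actin-bundling protein gene Lcp1 was 45.8 CPM in p1 and 16.4 CPM in p2, Prtn3 (proteinase 3) 125 and 56.0 CPM, lysozyme Lyz2 178 and 101 CPM, and Laptm5 282 and 162 CPM. With only E10.5 cells 6 erythroid and megakaryocyte genes were past 2-fold lower and 1 was higher, and 4 myeloid genes were higher and 0 lower; in run 3 alone the erythroid and megakaryocyte counts were 3 lower and 1 higher.

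The lymphoid list was mostly silent. Of 23 genes, 13 had 0 counts in both p1 and p2, among them the recombination genes Rag1 and Rag2, the terminal transferase Dntt and the B cell factor Pax5, and 6 could be compared, 3 higher and 3 lower in p1 with a median of 0.03. Higher were Bcl11a (47.2 against 9.56 CPM), a factor of early lymphoid and fetal erythroid cells, and the cytokine receptor chain Il2rg (615 against 223 CPM). Lower were the E protein gene Tcf3 (25.9 against 87.4 CPM) and Cd79b (30.5 against 81.9 CPM), a B cell receptor component. Of 18 genes of multipotent progenitors, 12 had the counts, with 3 higher, 0 lower and a median of 0.39. Cd34 was 554 CPM in p1 and 354 CPM in p2, and Erg 48.7 and 21.8 CPM. The leukocyte tetraspanin gene Cd53 was 83.8 CPM in p1 and at 0 in p2. Endothelial markers moved with these differences (1488 CPM in p1, 725 CPM in p2), and their part was not tested.

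Partners and relatives of the fate genes ranged from genes without a count to Cebpb, which had 881 counts in 64 cells. The 17 genes of this list summed to 441 CPM in c4, 410 CPM in c3 and 262 CPM in c5, against 19.8 to 132 CPM in the YS clusters. Flt3l, the ligand of Flt3, was 4.64 CPM in c5, 0 in p1 and 4.10 CPM in p2. Csf1, a ligand of Csf1r, was 14.6 CPM in c5, 0 in p1 and p2, and 44.4 CPM in c3. The ligand genes Il7 and Epo and the Ikaros relatives Ikzf3 and Ikzf4 had 0 counts in all 208 cells. Cebpb, a relative of Cebpa, was 247 CPM in c4, 142 CPM in c3, 140 CPM in c5, 3.05 CPM in p1 and 6.83 CPM in p2, and at most 23.5 CPM in YS HE. Ikzf5 was 18.5 CPM in c5, 0 in p1 and 1.37 CPM in p2.

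Of 8453 genes with at least 100 counts, those whose log2(CPM + 1) over the 9 clusters was most like that of a fate gene were found by Pearson's r, a description over 9 points that share tissue and cDNA project. For Myb these were Dr1 (0.977), Slc25a15 (0.970) and Gar1 (0.965). For Spi1 these were Eif3j2 (0.976), Appbp2 (0.974) and Gm9800 (0.970). For Ikzf1 they were Def6 (0.977), Taok3 (0.977) and Celf2 (0.969), and for Ikzf2 they were Socs6 (0.981), Pik3cg (0.976) and Dot1l (0.971).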

How the data were processed

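Full-length cDNA of 221 single cells was sequenced on a nanopore device, and each cell is a sample, grouped by the cluster in its name. Per the study's methods, reads were trimmed with bbduk, chimeras were filtered with YACRD and porechop, and reads were mapped with Minimap2 2.26 onto transcripts of GENCODE M37, with up to 10 alignments per read. The authors deposited NanoCount's estimated counts, which carry no normalization. They also deposited TPM, the same counts scaled to 1000000 per cell with no length correction (largest relative difference 1.25e-12). The submitters' notes list R 4.3.0 and DESeq2 1.40.2 as well.

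Transcripts were summed by symbol. Member sums were whole within 1e-06 in 100% of values, against 60.1% of single transcripts. Cells under 17595 counts, the median total minus 1 scaled median absolute deviation, were dropped, as the study dropped small libraries. Ratios had 0.5 counts added to each side and needed 10 summed counts; their intervals are exact conditional binomial. Groups at 0 were set to 3 counts over the group. The calculation was tested on simulated counts. The members and lists were chosen with earlier results of these data known. Some lists hold sort genes. These were Itga2b (CD41) among erythroid and megakaryocyte genes, and Cdh5 and Pecam1 (CD31) among endothelial markers. Runx1, Gfi1, Kit and Ptprc (CD45) were among the genes of multipotent progenitors. Named beside the members were up to 4 genes of each list with the largest p1 over p2 ratio among those with 30 counts (Kit left out as a sort gene), the 3 genes most like each member with 100 counts, and partners by name; other list genes were named after their values were seen. Alternatives covered depth limits, size factors, count limits, the added count, TPM means, runs, stage, library names and the strongest cell. Alternatives by plate, globin cell and list were chosen after seeing the data. edgeR 4.0.16 and DESeq2 1.42.0 gave size factors only; the rest ran in Python 3.11.15 with scipy 1.17.1. Sequences came from GENCODE M21 on GRCm38. 1 item of the lists is not reported here.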

Additional observations from a re-analysis of the deposited data

Results flagged for a closer look

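The Ikzf2 ratios had opposite signs in the YS pairs of progenitor and HE. The log2 ratio of p1 over HE-YSA was -1.36 (-2.98 to -0.24) and that of p2 over HE-YSP was 1.32 (-0.05 to 2.72), an interval that includes 0, and the difference between them was not tested. 1 p2 cell held 63.6% of the p2 counts, and without the strongest cell the p2 ratio was 0.05. The values rest on 6 counts in 3 p1 cells, 11 counts in 2 p2 cells, 48 counts in HE-YSA and 10 counts in HE-YSP. Retained-intron transcripts took 6 of these counts in p1, 9 in p2, 22 in HE-YSA and 7 in HE-YSP.

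Spi1 was also found in cells left out for low depth, with 7 counts in 2 of 13 cells whose totals ran from 95 to 17493. Ikzf1 had 1 count there, and the other 8 genes had 0.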

How the results depend on the processing

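No paired analysis was possible because the cells carry no replicate number or embryo that groups share. No ratio past 2-fold changed direction in an alternative that was run. Of the alternative values of the ratios 565 stayed on the same side and 80 moved. The 90 alternative levels in this count stayed within counting error, but levels by run did not always. Spi1 in c5 and Myb in c4, given by run above, left their summed intervals. Counts of members past 2-fold are small and moved with 1 or 2 genes. In p1 over p2 (none higher, none lower), 1 was higher with no depth limit, the log-scale limit of 22267 counts, no limit on counts, run 1 or run 3. The same held with only E10.5 or only plates WN-S6-3 and WN-S6-4. In that comparison 1 was lower with mean TPM, no limit on counts, run 1 or only E10.5, and 2 on those plates. In p1 over c5, 1 was higher with no limit on counts, and 2 rather than 4 were lower in run 3 and without the strongest cell. In p2 over c5, 2 were higher with no limit on counts and 2 rather than 4 lower in run 3. In c5 over HE-AGM, lower went from 1 to 0 with 30 counts, in runs 1 and 2, without the strongest cell and on the plate of c5, to 3 with no limit on counts and to 2 in run 3. In p1 over HE-YSA, lower went from 2 to 1 with 30 counts and in run 2 and to 0 in run 3, where higher was 1. In p2 over HE-YSP, higher went from 3 to 1 in run 1, and lower from 1 to 0 with the log-scale limit, 30 counts, each run, E10.5 and without the strongest cell. In HE-AGM over HE-YSA, higher went from 3 to 6 with no limit on counts, and lower from 0 to 1 in run 1 and without the strongest cell. In HE-AGM over HE-YSP, higher was 6 with no limit on counts and lower 1 without the strongest cell. In HE-YSA over HE-YSP, higher was 2 with the log-scale limit and E10.5, 0 in run 1 and 3 in run 3, and lower was 0 in run 2. At equal depth 4 rather than 7 genes were expected to be detected in c4 and 2 rather than 4 in a1. The cause of these moves was not tested, apart from the fewer cells or counts that an alternative itself sets. At this depth a gene without a count could be at up to 0.306 CPM over all cells (3 counts).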

Other observations

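Lists of other fate genes moved differently between the progenitor clusters and the HE of their own site. In p2 over HE-YSP, 9 of 19 erythroid and megakaryocyte genes were past 2-fold higher and 1 lower, with a median log2 ratio of 0.90 (all genes 12% higher and 22.1% lower). In p1 over HE-YSA, 4 of 16 were higher and 6 lower, with a median of -0.29 (all genes 12% and 25%), and in c5 over HE-AGM 5 of 20 were higher and 3 lower, with a median of -0.21 (all genes 9.71% and 24.8%). Against the same shares of all genes, 11 of 14 myeloid genes were higher in p1 (median 2.75), 9 of 14 in c5 (median 1.43) and 6 of 12 in p2 (median 0.83), with 2, 1 and 1 lower. Mpo was 323 CPM in c5, 206 CPM in p1 and 259 CPM in p2, whereas it was 9.91 CPM in HE-AGM. In YS HE it was 0 in a1, 19.7 CPM in a2, 4.70 CPM in b2 and 76.7 CPM in b3.

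Some genes of stem and multipotent progenitor cells differed between c5 and the YS progenitors, and others did not. The 18 such genes include the sort genes Runx1, Gfi1, Kit and Ptprc (CD45). Of them, 7 were past 2-fold lower and 2 higher in p1 than in c5, where 33.7% of all genes were lower and 18.6% higher. In p2 9 were lower and 1 higher, where 32.7% of all genes were lower and 18.8% higher. The medians were -0.80 and -1.31, the latter -0.97 with genes at 0 set to 3 counts, against -0.19 and -0.21 over all genes. The examples were chosen after their values were seen. Hlf was 46.4 CPM in c5, 1.52 CPM in p1 and 0 in p2, Hoxa9 was 57.6 CPM in c5 and 0 in the other two, and Mecom was 24.5 CPM in c5 and 0 in the other two. The reverse held for Cd48, which was at 0 in c5, 146 CPM in p1 and 104 CPM in p2. Cd34 (588, 554 and 354 CPM in c5, p1 and p2), Mycn (155, 195 and 190 CPM), Cd44 (37.1, 39.6 and 45.1 CPM) and Erg (43.1, 48.7 and 21.8 CPM) were within 2-fold of c5 in both.

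Some genes of the lymphoid list were abundant in HE. Il2rg was detected in 160 of 208 cells and was 787 CPM in b2 and 327 CPM in c3, against 33.8 CPM in c5 and 615 CPM in p1. Tcf3 was detected in 142 cells and was 275 CPM in c3 and 193 CPM in c4, against 187 CPM in c5, 25.9 CPM in p1 and 87.4 CPM in p2. Ets1 was detected in 71 cells and was 76.3 CPM in c3 and 85.8 CPM in b2, against 7.95 CPM in c5, 16.8 CPM in p1 and 0 in p2. Notch1 was 62.9 CPM in c3, against 1.32 CPM in c5, 0 in p1 and 5.46 CPM in p2.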
